A study of Saccharomyces cerevisiae with 3 samples.

Results

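The genes described here encode 46 ribosome biogenesis and pre-rRNA processing factors of Saccharomyces cerevisiae, taken as a fixed list of open reading frames (ORFs) out of the 6207 ORFs in the deposited table. They are core proteins of the small nucleolar ribonucleoprotein particles (snoRNPs), parts of the small subunit processome, assembly factors of the large subunit precursor (the pre-60S particle) and RNA helicases. RNA polymerase I subunits were kept apart. All 46 were found in the table and were named by locus tag from the RefSeq gene table. Each array compared RNA of caspofungin-treated cells with RNA of untreated cells from the same split culture. Both conditions used the strain MID2extWSC1cyt in the BY4741 background, which by its name is a chimera with the outer part of the cell wall sensor Mid2 and the cytoplasmic tail of another sensor, Wsc1. Cells grew in YEPD at 24 °C from an optical density of 0.2, and the treated part received caspofungin, an inhibitor of β-1,3-glucan synthesis, at 15 ng/ml for 2 h. Growth between dilution and splitting lasted 2.5 h by the series text but 2 h by the sample labels. The labels do not say from which promoter the chimera is expressed or whether the strain still carries the native sensors, and the strain without the chimera was not analysed here.

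A yeast ribosome is built from ribosomal RNAs and proteins in the nucleolus. The snoRNPs methylate and pseudouridylate the precursor rRNA, the processome folds and cuts its 5′ part into the small subunit RNA, and pre-60S factors assemble the large subunit before its export to the cytoplasm. In yeast, the genes for these factors form a large co-regulated group that is known to be expressed in growing cells and repressed under many stresses. The arrays ask where the transcripts of these factors stood after caspofungin.

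Treated RNA was labelled with Cy3 on array 1 (numbered as in its title) and with Cy5 on arrays 2 and 4. The labels describe 2 cultures with a dye swap each, so arrays 2 and 4 come from different cultures, and array 1 shares its culture with one of them. Across all ORFs the arrays were positively correlated, with Pearson's r of 0.436 between arrays 1 and 2 (2818 ORFs), 0.394 between arrays 1 and 4 (745 ORFs) and 0.347 between arrays 2 and 4 (724 ORFs). By the rule used here, array 1 therefore counted as already turned to the direction of the others. A dye effect of each gene, in values left as Cy5 over Cy3 throughout, would give the same positive correlation, so the direction is not settled. When 2 was raised to the deposited values, 100% of the results on each array fell on steps of 0.0001, with a tolerance of 0.01 of a step, and at most 2.54% did with the sign turned. The ratios of array 1 were thus kept in the deposited orientation when they were rounded. Signs below are those of the deposited log2 scale, where a positive value would mean higher with caspofungin if the ratio is caspofungin over untreated. The array medians over all ORFs were −0.24, −0.14 and −0.93, and the SDs were 0.809, 0.436 and 1.55, on arrays 1, 2 and 4. Of 6 markers of a cells, the mating type of BY4741, 4 had a value. None of 4 markers of alpha cells and none of 7 meiotic markers had one, and ratios do not tell levels.

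In the deposited orientation, transcripts of these factors stood high on array 1, more often above than below the middle on array 2 and on both sides of the middle on array 4. With array 1 turned they would stand low there, with 29 of 37 negative, where 36.1% of all ORFs would be, and a median percentile of 18.7. The RNA came from whole cultures, so fewer cells with a transcript and less of it per cell cannot be told apart. On array 1, 29 of the 37 measured factors were positive and 8 negative, where 36.1% of all ORFs were positive, and their median was 0.40. On array 2, 17 of 35 were positive and 18 negative, against 33.4% positive over all ORFs, with a median of −0.01, and 23 lay above the array's median. On array 4, 3 of 10 were positive and 7 negative, against 19.1% positive, with a median of −1.08. Read as places among all ORFs of the same array, the factors had a median percentile of 81.3 on array 1 as deposited, 64.9 on array 2 and 46.02 on array 4. On array 4, 1 factor was positive at 2-fold or more, where 6.67% of ORFs were, and 5 were negative, where 47.7% were. As deposited, no factor passed the gene-wise test in either direction.

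**Figure D1:**
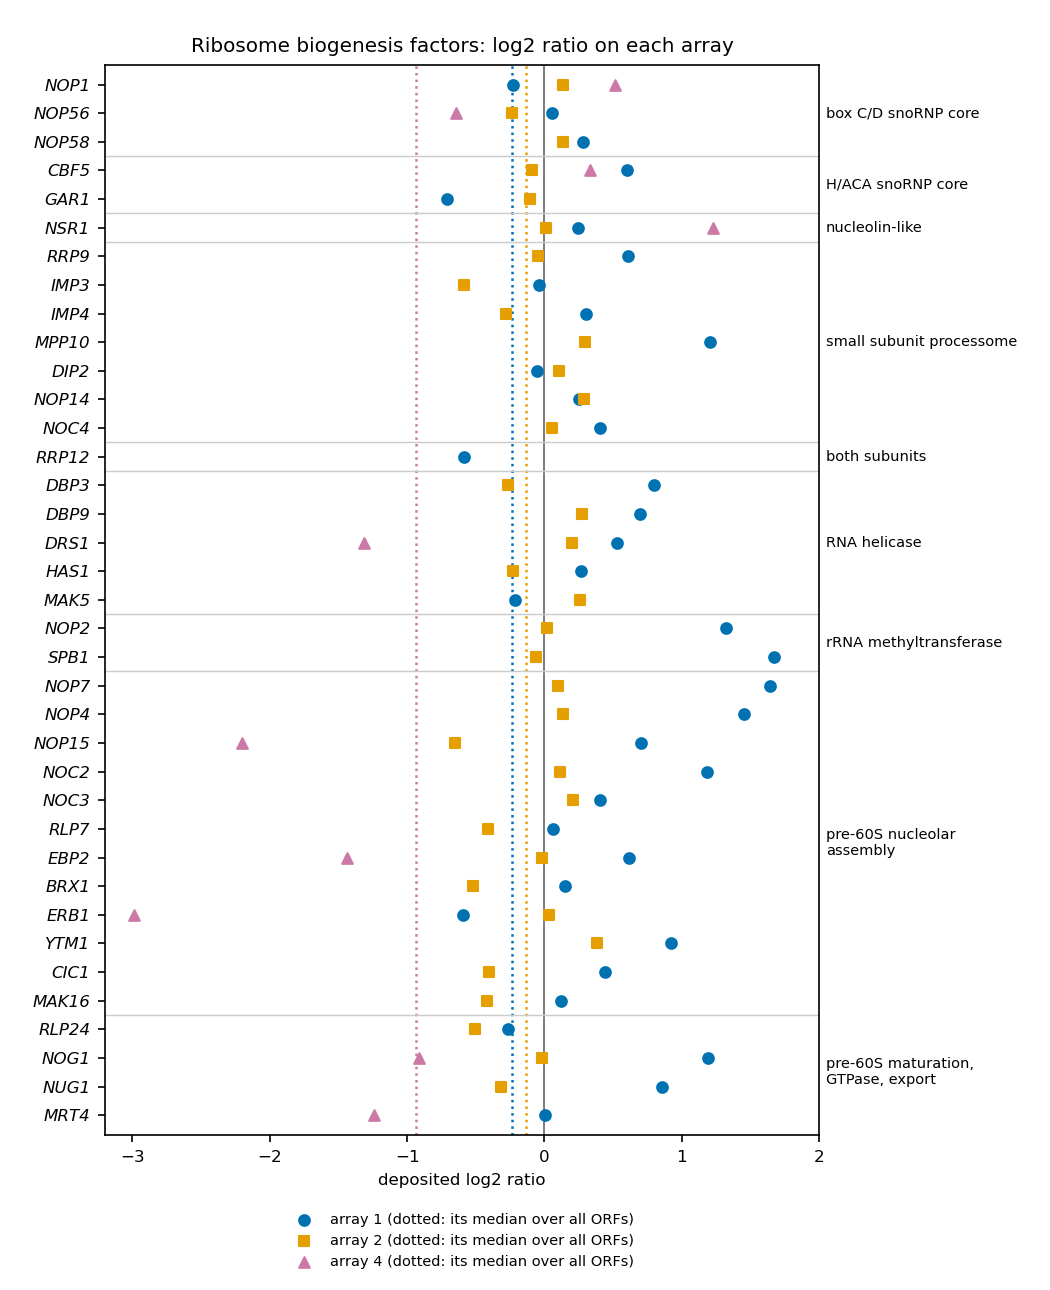
Deposited log2 ratio of the 37 ribosome biogenesis factors with a value, by role. Circles are array 1, squares array 2, triangles array 4, and dotted lines mark each array's median over all ORFs (−0.24, −0.14 and −0.93). Circles reach 1.67, squares stay between −0.65 and 0.38, and triangles run from −2.99 to 1.23.

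Most of the factors were measured on arrays 1 and 2, which have opposite dye orientation and are called the dye-swapped pair here, and few on array 4. Whether this pair comes from 1 culture is not given. Array 1 held a value for 37 of the 46 factors (80.4%, against 60.4% of all ORFs), array 2 for 35 (76.1%, against 45.6%) and array 4 for 10 (21.7%, against 13.8%). Both array 1 and array 2 measured 35 factors, and all 3 arrays measured 9. No array gave a value for 9 factors, which is 19.6% of them and compares with 37.6% of all ORFs. These are PWP2 (YCR057C), UTP20 (YBL004W), UTP22 (YGR090W) and KRE33 (YNL132W) of the small subunit processome, RRP5 (YMR229C), which is needed for both subunits, the helicase SPB4 (YFL002C), the pre-60S factor MAK21 (YDR060W), the export adaptor NMD3 (YHR170W) and the giant ATPase REA1 (YLR106C, also MDN1). Their genes run from 1557 bp for NMD3 to 14733 bp for REA1 with a median of 3171 bp, while the 35 factors measured on arrays 1 and 2 have a median of 1563 bp. Among other ORFs, 46.5% of those of 2000 bp or more had no value, against 28.5% of those of 1000 to under 2000 bp and 34.9% of the shorter ones. RRP12 (YPL012W), an export factor of both subunits, had a value on array 1 alone, −0.59. MRT4 (YKL009W), a stand-in for the ribosomal stalk protein P0 in the pre-60S particle, had 0.00 on array 1 and −1.24 on array 4.

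The core snoRNP proteins had small values of mixed sign. NOP1 (YDL014W), the fibrillarin that methylates rRNA in box C/D snoRNPs, had −0.23, 0.13 and 0.51 on arrays 1, 2 and 4. NOP56 (YLR197W), one of the paired scaffold proteins of the same particle, had 0.05, −0.24 and −0.64. Its partner NOP58 (YOR310C) had 0.28 and 0.14 on arrays 1 and 2. The signs of the box C/D genes thus differed, but on array 4, where most ORFs were negative, both NOP1 and NOP56 lay above the array's median, by 1.45 and 0.29. CBF5 (YLR175W), the pseudouridine synthase of the H/ACA snoRNPs, had 0.60, −0.09 and 0.33 on arrays 1, 2 and 4. GAR1 (YHR089C), a small core protein of the same particle, had −0.71 and −0.11 on arrays 1 and 2, the lowest value of any factor on array 1. NSR1 (YGR159C), the yeast relative of nucleolin, had 0.24, 0.01 and 1.23 on arrays 1, 2 and 4. As deposited, it was the only factor among the 9 with a value on every array that kept 1 sign throughout, where 53.0% of the 723 such ORFs did and 7.61% were positive throughout. After each array was centred on its median, 4 of the 9 were positive throughout, NSR1, NOP1, CBF5 and NOG1, where 25.3% of ORFs were and 46.2% kept 1 sign.

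Among processome genes, those of the Mpp10 complex differed from each other. MPP10 (YJR002W) itself had 1.21 on array 1 and 0.29 on array 2. IMP3 (YHR148W) and IMP4 (YNL075W), whose products bind Mpp10 and pair the U3 snoRNA with the precursor rRNA, were lower on both arrays. IMP3 had −0.04 and −0.59, and IMP4 had 0.30 and −0.28. The genes differ in length in the same order, with 552 bp for IMP3, 873 bp for IMP4 and 1782 bp for MPP10. On each array a smooth curve of value on length was drawn over all ORFs. With this length curve removed, the means of arrays 1 and 2 were 0.15 for IMP3, 0.29 for IMP4 and 0.68 for MPP10, where they had been −0.31, 0.01 and 0.75, so the order stayed and the gap narrowed. RRP9 (YPR137W), a protein particular to the U3 snoRNP, had 0.61 and −0.04. NOP14 (YDL148C) and NOC4 (YPR144C), whose products form a complex in small subunit assembly, were positive on both arrays, with 0.25 and 0.29 for NOP14 and 0.40 and 0.05 for NOC4. DIP2 (YLR129W), a member of the UTP-B complex, lay near 0 on both, with −0.05 and 0.11.

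The helicase genes had means of arrays 1 and 2 above 0 in all 5 measured cases, of 6 in the list, where 33.2% of ORFs had, but 4 of the 5 were negative with array 1 turned, where 50.7% of ORFs were. DBP9 (YLR276C) had 0.70 and 0.27 on arrays 1 and 2. DRS1 (YLL008W) had 0.53 and 0.20 there but −1.32 on array 4. These 2 were positive on both arrays of the dye swap, and the others changed sign between them. DBP3 (YGL078C) had 0.80 and −0.26, HAS1 (YMR290C), which acts in both subunits, had 0.27 and −0.23, and MAK5 (YBR142W) had −0.21 and 0.26. The means of arrays 1 and 2 ran from 0.02 for HAS1 and MAK5 to 0.49 for DBP9. With array 1 turned they ran from −0.53 for DBP3 to 0.24 for MAK5, the one that stayed positive.

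Among the factors, the 4 highest values of array 1 as deposited belonged to genes of the large subunit pathway, and array 2 did not show them at that size. With array 1 turned these would be the 4 lowest. The 4 genes were picked by array 1, which had the larger SD (0.809, against 0.436 on array 2). Their percentiles on array 2 were 59.7 for SPB1, 76.8 for NOP7, 79.1 for NOP4 and 68.3 for NOP2. SPB1 (YCL054W), which methylates a ribose in the large subunit rRNA, had 1.67 on array 1 and −0.06 on array 2. NOP7 (YGR103W) had 1.65 and 0.10. NOP4 (YPL043W), an RNA-binding protein of early pre-60S particles, had 1.45 and 0.13. NOP2 (YNL061W), the methyltransferase of a cytosine in the large subunit rRNA, had 1.32 and 0.02. NOG1 (YPL093W), a nucleolar GTPase, had 1.19 and −0.02, and −0.91 on array 4. NOC2 (YOR206W), part of the Noc complexes that accompany pre-60S transport, had 1.18 and 0.11. With MPP10 these are the 7 factors of at least 2-fold on array 1, all positive, where 5.47% of ORFs were positive and 14.3% negative at that size. On array 2 no factor reached 2-fold in either direction, and 2.12% of ORFs were positive and 1.02% negative at that size.

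Nop7, Erb1 and Ytm1 form 1 complex in large subunit assembly, and their genes had unlike values on array 1 but were all positive on array 2. YTM1 (YOR272W) had 0.92 on array 1 and 0.38 on array 2, the highest array 2 value among the factors. ERB1 (YMR049C) had −0.59 on array 1, 0.03 on array 2 and −2.99 on array 4, the lowest value of any factor on any array. NOP7 and YTM1 were thus positive on both arrays that measured them, and ERB1 was negative on 2 of its 3 arrays. The difference between ERB1 and the others was not tested.

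Other pre-60S genes were positive on array 1 and negative on array 2 in most cases. NOP15 (YNL110C), an RNA-binding assembly factor, had 0.71, −0.65 and −2.20 on arrays 1, 2 and 4, the widest spread over arrays after that of ERB1. EBP2 (YKL172W), a nucleolar factor of 27S rRNA processing, had 0.62, −0.01 and −1.43. Neither of these values repeated from array to array. CIC1 (YHR052W) had 0.44 and −0.40 on arrays 1 and 2, BRX1 (YOL077C) had 0.15 and −0.52, and MAK16 (YAL025C) had 0.12 and −0.42. RLP7 (YNL002C), a relative of a ribosomal protein, had 0.07 and −0.41. NOC3 (YLR002C) was positive on both, with 0.40 and 0.21. Among the later factors, the GTPase NUG1 (YER006W) had 0.86 and −0.32, and RLP24 (YLR009W), which holds the place of a ribosomal protein until the cytoplasm, had −0.26 and −0.50.

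Over the dye-swapped pair, the 35 factors measured on both arrays had more positive means than ORFs in general. Means of arrays 1 and 2 were positive for 26 and negative for 9 of the 35, where 33.2% of the 2818 ORFs had a positive mean. After each array was centred the counts were 31 and 4, where 50.7% of ORFs were positive. With the length curve removed they were 32 and 3, where 55.8% of ORFs were positive, and 8 factors changed sign. The median of the factors' means was 0.23, and that of all ORFs was −0.18. Array 1 carried this median, which was 0.40 over the same 35 factors on array 1 alone and −0.01 on array 2 alone. Both arrays were positive for 13 factors, against 20.5% of ORFs, and both were negative for 3, against 47.1%. The signs opposed each other for 19, where 32.4% of ORFs had opposed signs, and 15 of these were positive on array 1. The value on array 1 as deposited exceeded that on array 2 for 29 of 35 factors, against 50.7% of ORFs. After each array was centred on its median this held for 30 of 35, against 57.5%. With the sign of array 1 turned, the reading under which the deposited values were Cy5 over Cy3, the median of the factors was −0.27, with 6 positive and 29 negative, and that of all ORFs was −0.00. The value on array 1 then exceeded that on array 2 for 9 of 35 factors, against 66.8% of ORFs.

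**Figure D2:**
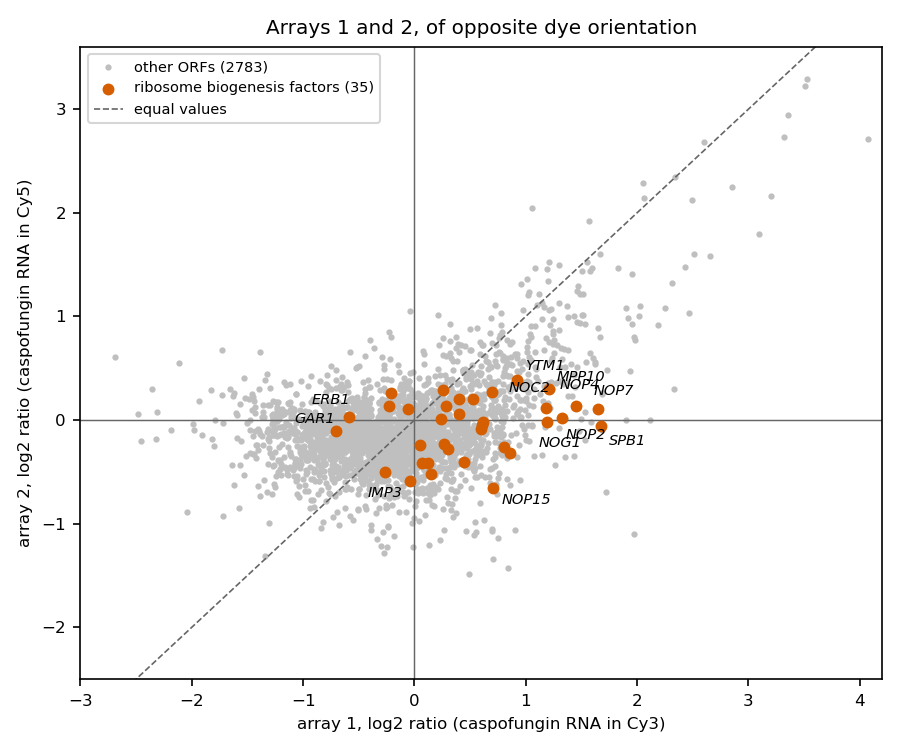
Log2 ratio on array 1 (horizontal) and array 2 (vertical) for the 35 ribosome biogenesis factors measured on both (large points) and the other ORFs (small points), of which 1 lies outside the axes. Of the factors, 29 lie below the dashed line of equal values, and NOP7, SPB1, NOP4 and NOP2 sit at 1.32 or more on array 1 and between −0.06 and 0.13 on array 2.

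**Figure D3:**
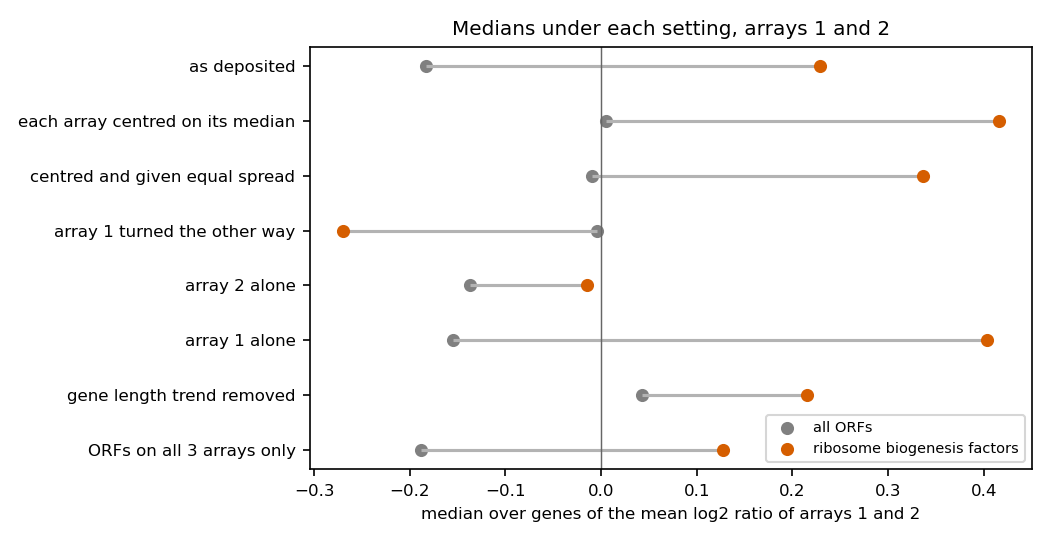
Median over genes of the mean log2 ratio of arrays 1 and 2 under each setting, for all ORFs (grey) and for the ribosome biogenesis factors (orange). The median of the factors is 0.23 as deposited and −0.27 with array 1 turned, and all ORFs lie at −0.18 and −0.00 there.

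In the limma fit of the mean of arrays 1 and 2, 25 of 2818 ORFs were called at an adjusted p under 0.05, which is 0.887%, and all 25 were positive. None of the 35 factors was among them. At an unadjusted p under 0.05 there were 4 factors, all positive, where 13.5% of ORFs passed in either direction and 7.06% as positive. NOP7 had a mean of 0.87 (SE 0.37, 2 arrays), with a 95% interval from 0.04 to 1.71 and a limma adjusted p = 0.362. SPB1 had 0.81 (SE 0.39, limma adjusted p = 0.406) and NOP4 had 0.79 (SE 0.34, limma adjusted p = 0.367). MPP10 had 0.75 (SE 0.30, limma adjusted p = 0.341), the lowest adjusted p of the factors, and YTM1 had 0.65 (SE 0.28, limma adjusted p = 0.364). The 4 at an unadjusted p under 0.05 were NOP7, NOP4, MPP10 and YTM1. Means of 0.5 or more were found for 8 factors, these 5 and NOP2 (0.67), NOC2 (0.65) and NOG1 (0.59), where 9.87% of ORFs had such a mean. No factor had a mean of −0.5 or less, where 16.5% of ORFs did, and the lowest were GAR1 (−0.41) and RLP24 (−0.38), which had 0.02 and 0.05 with the length curve removed. With array 1 turned, no factor had a mean of 0.5 or more and 9 had −0.5 or less, where 4.72% of ORFs did. These were 6 of the 8, without MPP10 and YTM1, and DBP3, NUG1 and NOP15. No factor reached a mean of 1, where 3.09% of ORFs did, and the smallest value called among all ORFs was 1.47. These p-values rest on a spread between 2 arrays that may share a culture, and limma drew that spread mostly from all ORFs. Its prior had 7.81 degrees of freedom, beside 1 residual degree of freedom of each ORF. In the fit after centring of each array, all factors shared an SE of 0.33. NOP7 was then the 1 factor of 35 called, with 1.06 (limma adjusted p = 0.0295), where 134 of 2818 ORFs were called. Over the other settings its limma adjusted p ran from 0.0867 with equal spread to 1.00 with array 1 turned, where its value was −0.77.

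With array 4 included, the SE of each of the 9 factors was larger than in the fit of arrays 1 and 2. Beside their SE, the values of ERB1, NSR1 and NOP15 were then larger in size. Those of the other factors in this fit were smaller. The limma fit with terms for caspofungin and for dye over the 723 ORFs on all 3 arrays called 2 ORFs, 0.277%, and none of the 9 factors. Of these ORFs, 3.18% had an unadjusted p under 0.05, and none of the 9 factors did. The fitted values of the factors were positive for 4 and negative for 5, where 192 of the 723 ORFs were positive. The median of the factors was −0.01, beside −0.36 over all 723. The highest was NSR1 with 0.43 and the lowest ERB1 with −1.03, each with an SE of 0.73 over 3 arrays. For ERB1 the limma adjusted p = 0.868 and the 95% interval ran from −2.46 to 0.39. CBF5 and NOG1 had 0.36, NOP1 0.05, DRS1 −0.01, EBP2 −0.05, NOP56 −0.19 and NOP15 −0.36. Their median was −0.47 without array 1, −0.34 without array 2, where 10 factors were measured, and 0.13 on arrays 1 and 2. After each array was centred, 8 of the 9 were positive, with a median of 0.37. Centring moved all ORFs too, and the median of the 723 was then 0.03. Without array 4 the number of these factors that were positive was 6 of 9. Every 95% interval of these 9 genes included 0 and extended 1.42 to either side of the value.

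Gene length went with the values on arrays 1 and 2, more closely on array 2, but not on array 4. Over the 35 factors on array 2, Pearson's r between the log2 ratio and log2 gene length was 0.724, and over the 37 factors on array 1 it was 0.293. Over all ORFs with a length the values were 0.312 on array 2 (2729 ORFs) and 0.273 on array 1 (3598 ORFs). On array 4 they were −0.15 over the 10 factors and 0.012 over 810 ORFs. Points on an array share its hybridization and its scan, so these are descriptions. The 9 measured factors under 1000 bp had a median mean of −0.17, the 18 of 1000 to under 2000 bp had 0.28 and the 8 of 2000 bp or more had 0.32. The other ORFs of the same length classes had −0.36, 0.02 and −0.04, below the factors in each class. On array 2 alone the order turned in the shortest class, with −0.42 for the factors and −0.24 for the other ORFs. On array 4 the factors, 3, 5 and 2 in number, were the lower in every class, with −1.24, −0.64 and −2.15 against −1.08, −0.61 and −1.39. Relative to the length curve, 31 of 37 factors (83.8%) lay above the curve on array 1, where 52.2% of ORFs did, with a median distance of 0.50. Related genes, listed below, did so nearly as often there, with 80.8% of 52 other snoRNP and processome genes and 77.8% of 45 other pre-60S genes. On array 2 these lists had 37.5% and 36.8% above it. On array 2, 17 of 35 lay above it, where 49.2% of ORFs did, with a median distance of −0.01. On array 4 it was 5 of 10, where 53.8% of ORFs did. With the length curve removed from both arrays, the median of the 35 factors was 0.21 and that of all ORFs 0.04.

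**Figure D4:**
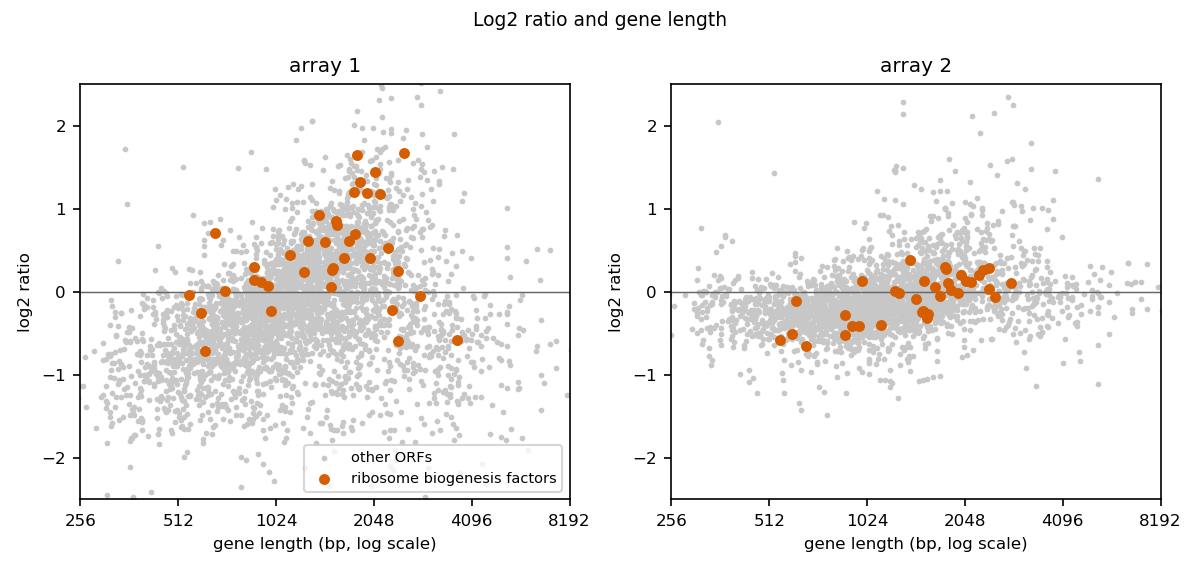
Log2 ratio against gene length (log scale) on arrays 1 and 2 for ribosome biogenesis factors (large points) and other ORFs (small points), with 53 ORFs of array 1 and 29 of array 2 outside the axes. The factors climb with length on array 2 (r = 0.724, 35 genes), and on array 1 (r = 0.293, 37 genes) those of 1000 to under 2000 bp have a median of 0.61.

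Other genes of the pathway, taken from a fixed list, had lower medians than the measured factors on the dye-swapped pair as deposited. Of 66 other snoRNP and processome genes, 48 were measured on arrays 1 and 2, with 22 positive and 26 negative means and a median of −0.10. Of 55 other pre-60S genes, 38 were measured there, with 18 positive and 20 negative means and a median of −0.04. Positive means thus made up 45.8% and 47.4% of the 2 lists, where 33.2% of all ORFs had one, and the median of all ORFs was −0.18. None of these passed the test in either direction. SDA1, a pre-60S factor needed for export, was the only one with 1 sign on both arrays and a mean of at least 2-fold, with 1.96 and 0.93, a mean of 1.44 and a limma adjusted p = 0.0795. On array 1 alone the medians of these lists were 0.11 and 0.18, and their median percentiles were 69.1 and 72.8. On array 2 the median percentiles were 40.4 and 39.8, where that of the measured factors was 64.9. On array 4 the other snoRNP and processome genes were negative in all 9 measured cases, 8 of them at 2-fold or more, with a median percentile of 21.2, and the other pre-60S genes in all 6, with 56.8. With array 1 turned the median percentiles of these lists on array 1 would be 30.9 and 27.2, below those of array 2. That of the factors would be lower still, 18.7. The medians of the lists on the dye-swapped pair would then be −0.18 and −0.23, above the −0.27 of the factors. No test was made of the lists against each other.

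As deposited, genes of rRNA synthesis and of the ribosomal proteins lay nearer to all ORFs on the dye-swapped pair than the factors did. The median of all ORFs there was −0.18. The RNA polymerase I list had 3 positive and 7 negative means among its 10 genes on arrays 1 and 2, with a median of −0.12, above that of all ORFs. Its median percentile was 57.4 on array 1 as deposited and 44.96 on array 2. The cytosolic ribosomal protein genes had 10 positive and 96 negative means among 106, with a median of −0.24, below that of all ORFs. Their median percentile was 48.7 on array 1 and 39.9 on array 2, but 73.3 on array 4, where that of the measured factors was 46.02. With array 1 turned, medians on the pair would be −0.22 for RNA polymerase I and 0.03 for the ribosomal protein genes. Those of all ORFs and of the factors would be −0.00 and −0.27. Of the 13 regulators of ribosome genes, 7 were measured on the dye-swapped pair, with 3 positive and 4 negative means and a median of −0.00. None of the genes of these lists was called. TOD6, a repressor of ribosome biogenesis genes, had the highest mean among the regulators, 0.75 (limma adjusted p = 0.311), and was named after its value was seen. It had 0.95 and 0.55 on arrays 1 and 2, which would oppose each other in sign with array 1 turned. DOT6, of the same list, had −0.09, 0.40 and −1.59 on arrays 1, 2 and 4.

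**Figure D5:**
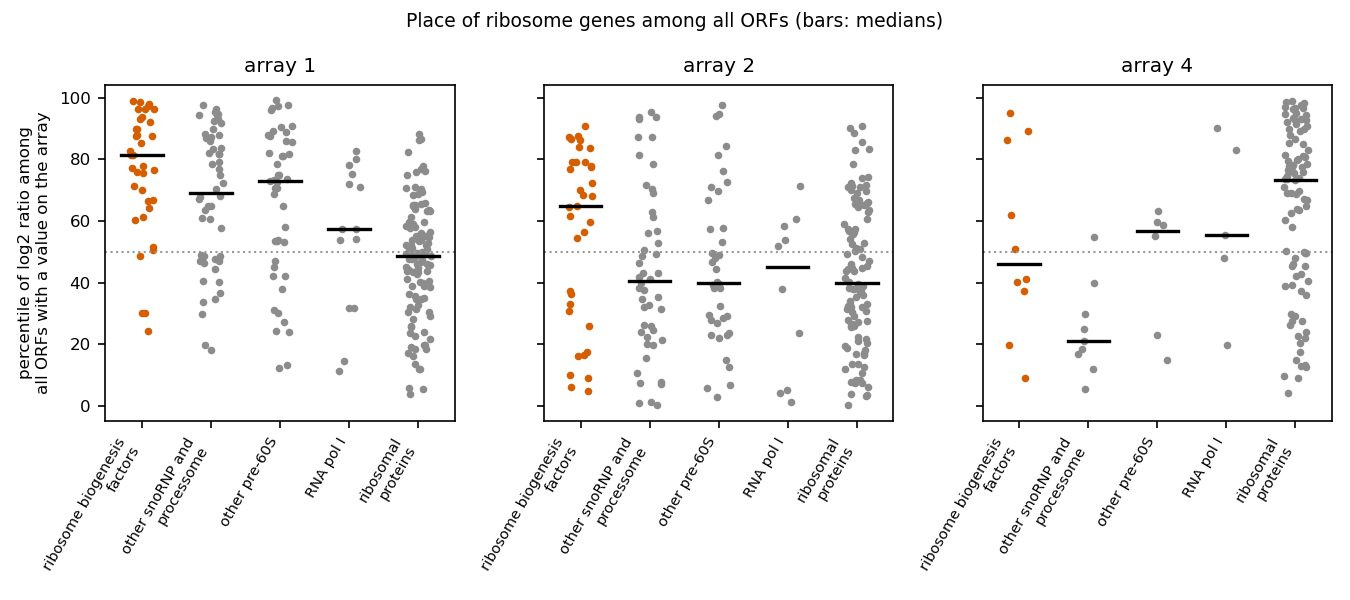
Percentile of each gene's log2 ratio among all ORFs with a value on arrays 1, 2 and 4, for the ribosome biogenesis factors and related gene lists, with bars at the medians. The bar of the factors lies at 81.3 on array 1, 64.9 on array 2 and 46.02 on array 4, and that of the ribosomal proteins is 48.7, 39.9 and 73.3.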

How the data were processed

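The deposited table holds 1 log2 ratio per ORF and array, made by the authors from 2-colour arrays. Per the labels' protocols, total RNA was reverse transcribed with a CyScribe kit and labelled with Cy3 or Cy5. No source used here names the scanner, the background correction, the normalization, the ratio direction or the filter behind empty cells, and base 2 was read from the values. The number of arrays limits the precision, and spot signals, which bear on it too, are not given. Names and lengths come from the RefSeq gene table (assembly R64); 5654 ORFs matched by locus tag.

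limma (version 3.58.1, R 4.3.3) was run on the log2 values, over all ORFs of each fit, with Benjamini-Hochberg adjustment: a caspofungin and a dye term on 3 arrays (723 ORFs), and the mean of arrays 1 and 2 (2818 ORFs). Each fit leaves 1 residual degree of freedom, and was tested on simulated data with equal noise for all ORFs. The fit of arrays 1 and 2 recovered 13% of ORFs moved by 2 SDs and 98% of those moved by 4 SDs. The fit of 3 arrays recovered 66% and 100%. These shares do not compare the fits. In each, 100 ORFs were moved by each size, out of 2818 or 723. The SD was that of each fit, which limma put at a median of 0.38 on arrays 1 and 2 and at 1.19 on 3 arrays. The simulated arrays also shared no culture and had equal spread, unlike the real ones. Array 1 shares a culture with array 2 or array 4, so p-values of the fit of arrays 1 and 2 measure a spread that may be technical. In the fit of 3 arrays, array 1 alone has its dye orientation. The residual there is between arrays 2 and 4, which come from different cultures. In that fit limma took the spread wholly from all ORFs, so every ORF had the same SE, 0.73. The 46 factors and the lists were chosen with earlier results of these data known. Factors on all 3 arrays, or with a mean of 0.5 or more in size, were to be named with every value, and the other measured ones are given too. Promoter sequences were not analysed here.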

Additional observations from a re-analysis of the deposited data

How the results depend on the processing

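The number of factors called stayed at 0 under each setting tried but 1. With each array centred on its median, the fit of arrays 1 and 2 called 1 of 35, NOP7, where 134 of 2818 ORFs were called. The ORFs called on 3 arrays, 2 as deposited, were 0 after centring, with equal spread, with array 1 turned, without the dye term, with arrays 1 and 2 averaged as 1 culture and with the length trend removed, 12 with arrays 1 and 4 averaged, and 0 to 25 with an array left out (25 without array 4, where 2818 ORFs could be tested). The 25 ORFs called on arrays 1 and 2 were 134 after centring, 166 with equal spread, 1 with array 1 turned, 11 over the ORFs on all 3 arrays and 70 at an adjusted p under 0.10. The cause of these moves was not tested, apart from the number of ORFs or arrays where it changed. The factors' median on arrays 1 and 2 ran from −0.27 with array 1 turned to 0.42 after centring, and was −0.01 and 0.40 with array 1 or array 2 left out. On 3 arrays it ran from −0.47 without array 1 to 0.47 with equal spread, and leaving out an array gave −0.47 to 0.23, the last without array 4, over 35 factors, which is 0.13 over the 9 on all 3 arrays. On both arrays 13 factors were positive and 3 negative, against 20.5% and 47.1% of ORFs. After centring, with or without equal spread, these counts became 21 and 1, against 31.4% and 25.9% of ORFs. With array 1 turned they became 4 and 15, against 12.9% and 19.5%. The length trend and the ORFs on all 3 arrays were chosen as settings after seeing the data. Each ratio already pairs treated with untreated RNA of 1 split culture. Beyond that, no paired analysis was possible because the array number is shared with no other group. The comparison of promoter motifs was not run. Only 2 or 3 arrays stand behind each value, and signal over background is not known.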
